A study of Mus musculus with 7 samples.

Results

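The genes described here are 6 components of the phagocyte NADPH oxidase, chosen by symbol for their function: Cybb, Cyba, Ncf1, Ncf4 and the Rac GTPases Rac1 and Rac2. Each symbol matched 1 of the 32212 gene identifiers in the deposited files, and all 6 were found. The tumours came from C57BL/6J mice of wild-type genotype, injected under the skin at 6 weeks of age with LLC (Lewis lung carcinoma), a lung cancer line of mouse origin. The 7 libraries of messenger RNA comprised 3 from mice given the high dose of ZQD (Ze-qi decoction, a herbal medicine), 42.67 g/kg, and 4 from untreated tumour-bearing mice (control). Mice were assigned to groups after 3 days, with 8 mice per group, and the labels give both day 21 and day 22 for the end of the experiment. They number the samples within a group without saying that each is a separate mouse, and p-values therefore reflect sample-to-sample spread, part of which may be technical. LLC arose in a mouse of the C57BL background, and the host kept its own immune cells, so transcripts of tumour and host cells are counted together.

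The phagocyte oxidase is a multi-subunit enzyme of neutrophils, monocytes and macrophages that moves electrons from NADPH to oxygen and so makes superoxide. Its membrane part is a pair of proteins, the catalytic subunit NOX2 encoded by Cybb and its partner encoded by Cyba. On activation it is joined by cytosolic proteins, among them the organizer encoded by Ncf1, the adaptor encoded by Ncf4 and a Rac GTPase. Oxidants made this way kill microbes, and they are among the known triggers of neutrophil extracellular traps (NETs), the webs of DNA and granule protein that the study's title is about. Inherited loss of NOX2 or of several of its partners causes chronic granulomatous disease.

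The subunits differed in how their levels compared between the groups. Ncf1 was at 1.76 times its control level, Cybb was slightly higher, and Cyba, Ncf4, Rac1 and Rac2 had intervals that spanned 0. Levels are given as FPKM, which divide a gene's reads by its length and by the total of its library. A log2 fold change is the ZQD mean minus the control mean of log2(FPKM + 0.5). In limma, a linear model fitted over 14838 genes, 0 genes (0%) passed an adjusted p (Benjamini-Hochberg) of 0.05, while 2306 (15.5%) had an unadjusted p under 0.05. edgeR on rebuilt reads also called 0 genes (0%), with 2221 (15%) at an unadjusted p under 0.05, and DESeq2 on the same reads called 517 (4.13% of 12525). Of the 6 oxidase genes, limma called 0, edgeR called 0, and DESeq2 called Ncf1 (2.3% of genes were called higher by it). The log2 fold change was above 0 for 3 of the 6 and for 41.8% of all genes. Beside 5.35% of all tested genes with every ZQD library above every control, 2 of the 6 had this pattern, Ncf1 and Cybb, and 0 had the opposite one (9.84% of all genes). The lowest value of any of the 6 in any library was 6.45 FPKM, so the expression filter of 0.5 FPKM removed none of them.

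The libraries held 34765330 to 38673663 counted reads in ZQD and 32065288 to 49914394 in control. A single read in a gene of 1 kb was worth 0.0200 to 0.0312 FPKM. Mitochondrially encoded genes took 8.78% to 11.1% of reads in ZQD and 5.18% to 7.96% in control. FPKM are shares of a library total that includes these reads. The labels call the material tumour cells, but leukocyte genes were abundant: the 7 pan-leukocyte markers summed to 419.3 to 467.2 FPKM in ZQD and 348.6 to 410.4 in control. They were Ptprc, Coro1a, Laptm5, Cd53, Cd52, Tyrobp and Fcer1g. Fcer1g was the largest part of the sum (213.6 ± 16.5 FPKM in ZQD and 168.2 ± 13.4 in control, SD, n = 3 and n = 4). It alone had an unadjusted limma p under 0.05. The log2 fold change was above 0 for 5 (41.8% of all genes) and below 0 for Coro1a and Cd52. Of the 6 epithelial markers, the keratin Krt19 was at 6.26 to 19.7 FPKM in ZQD and 7.14 to 31.6 in control, while Krt8, Krt18, Krt7 and Epcam stayed at or below 0.702 FPKM in every library. In such bulk tumours, a larger number of cells of a type and more RNA per cell cannot be told apart, and this holds for every value below.

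Ncf1 (ENSMUSG00000015950) encodes p47phox, the organizer that binds the membrane pair once it is phosphorylated. It was at 14.4, 15.8 and 13.35 FPKM in ZQD 1 to 3, against 8.17, 8.32, 9.37 and 6.45 FPKM in controls 1 to 4. Every ZQD library lay above every control, and the gap between the groups was wider than the range within either. The means were 14.5 ± 1.23 FPKM in ZQD and 8.08 ± 1.21 in control (SD, n = 3 and n = 4). The log2 fold change was 0.82 (SE 0.13, 95% interval 0.53 to 1.11), which is 1.76-fold. Its unadjusted limma p was 0.000155, rank 14 of 14838 genes, with an adjusted p of 0.131. The adjusted p was 0.0994 in edgeR and 2.81e-06 in DESeq2. A fold change as high as this was found in 1.04% of all tested genes. The gene was covered by 1700 to 2238 reads in ZQD and 931 to 1494 in control, so the counting error was small beside the spread between libraries. In the GENCODE M21 annotation, Ncf1 lies on the minus strand of chromosome 5 (GRCm38, 134220053 to 134229625). Gtf2ird2, on the other strand, shares 408 of its exon bases (11.1%), and the sources used here do not say whether counting used strand. Gtf2ird2 was at 1.43 ± 0.192 FPKM in ZQD and 1.67 ± 0.134 in control (SD, n = 3 and n = 4), so its direction was opposite to that of Ncf1.

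Cybb (ENSMUSG00000015340) encodes the subunit that carries the electrons across the membrane. Its levels were 26.9, 25.4 and 27.8 FPKM in ZQD 1 to 3, against 21.4, 24.7, 22.5 and 17.2 FPKM in controls 1 to 4. The groups did not overlap, but ZQD 2 and control 2 were less than 1 FPKM apart. In log2 terms the fold change was 0.32 (SE 0.12, 95% interval 0.04 to 0.60), which is 1.25-fold, with an unadjusted limma p of 0.0278 and an adjusted p of 0.273. It was 0.22 without control 4, the lowest library. Neither edgeR (adjusted p = 0.226) nor DESeq2 (adjusted p = 0.0975) called the gene.

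Cyba (ENSMUSG00000006519) encodes p22phox, which stabilizes NOX2 in the membrane. It was at 27.4, 28.0 and 27.7 FPKM in ZQD 1 to 3, against 30, 27.0, 27.6 and 27.6 FPKM in controls 1 to 4. The ZQD values fell inside the control range, and Cyba was the steadiest of the 6 genes, with an SD of 0.05 on the log2 scale over the 7 libraries. The log2 fold change was -0.02 (95% interval -0.18 to 0.15, limma adjusted p = 0.934), which is a range of 0.881- to 1.11-fold. The sign was positive under TMM, median-of-ratios and mitochondria-free scaling and in both read-based tools.

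Promoter windows from RefSeq (build GRCm38.p6, 250 bases before to 50 after a gene's start) were found for 3 of the 6 genes. All 3 are shown, and they include Ncf1 and Cybb, whose groups did not overlap, and Cyba, the steadiest of the 6. Each is written in the gene's direction, and capitals mark GAGGAA, the core of the PU box recognised by the myeloid factor PU.1, on either strand (TTCCTC in the sequence as written where the motif is on the opposite strand).
Ncf1, chr5:134229576-134229875, minus strand: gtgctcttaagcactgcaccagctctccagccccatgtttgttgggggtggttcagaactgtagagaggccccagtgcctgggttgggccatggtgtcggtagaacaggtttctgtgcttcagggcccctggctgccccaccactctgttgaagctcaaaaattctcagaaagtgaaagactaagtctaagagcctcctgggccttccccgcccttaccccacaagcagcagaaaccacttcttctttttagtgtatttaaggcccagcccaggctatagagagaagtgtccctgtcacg
Cybb, chrX:9469275-9469574, minus strand: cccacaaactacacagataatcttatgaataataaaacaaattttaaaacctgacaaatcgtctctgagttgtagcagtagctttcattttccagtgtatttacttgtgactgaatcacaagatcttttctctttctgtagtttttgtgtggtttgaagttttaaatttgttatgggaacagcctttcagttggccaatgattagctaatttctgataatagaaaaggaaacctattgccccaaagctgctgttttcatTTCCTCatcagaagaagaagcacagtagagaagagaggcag
Cyba, chr8:122432891-122433190, minus strand: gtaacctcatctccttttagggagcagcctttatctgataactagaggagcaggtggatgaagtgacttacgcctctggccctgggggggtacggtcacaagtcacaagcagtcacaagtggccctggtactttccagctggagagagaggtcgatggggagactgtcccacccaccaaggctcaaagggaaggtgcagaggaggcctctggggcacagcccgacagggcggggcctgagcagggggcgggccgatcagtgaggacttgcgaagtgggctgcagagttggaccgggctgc
The motif was found once, in the Cybb window, beginning at base 260 of 300 on the opposite strand, and its letters are not in the Ncf1 and Cyba windows. Of all 32851 windows, 28.3% hold it on either strand. The Cybb window starts inside the gene's span in GENCODE M21 (chromosome X, 9435252 to 9487771), so it belongs to 1 of several annotated starts. The G and C content was 54% in the Ncf1 window, 35.3% in the Cybb window and 60.7% in the Cyba window, beside a median of 52.7% over all windows.

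Ncf4 (ENSMUSG00000071715) encodes p40phox, the adaptor that binds a membrane lipid of the phagosome. It was at 11.01, 8.17 and 10.4 FPKM in ZQD 1 to 3, against 10.5, 9.21, 10.6 and 7.79 FPKM in controls 1 to 4. The groups overlapped, with ZQD 2 and control 4 low in each. The log2 fold change was 0.05 (95% interval -0.27 to 0.37, limma adjusted p = 0.900), and it was 0.17 without ZQD 2 and -0.04 without control 4. The sign was also negative on the TPM scale and with library weights.

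Rac1 and Rac2 encode the small GTPases that join the active enzyme in their GTP form. Rac2 is restricted to blood cells, while Rac1 is made in nearly all cells and also drives actin movement. Rac1 (ENSMUSG00000001847) was at 93.0, 95.4 and 83.9 FPKM in ZQD 1 to 3, against 88.7, 89.4, 88.6 and 105.5 FPKM in controls 1 to 4. Controls 1 to 3 lay within 1 FPKM of each other and control 4 stood above every other library. Its log2 fold change was -0.03 (95% interval -0.25 to 0.18, limma adjusted p = 0.892) and became 0.03 without control 4. Its sign was also positive in edgeR, in DESeq2 and when libraries were scaled without mitochondrially encoded genes. In GENCODE M21, 51.4% of Rac1 exon bases are shared with Daglb on the other strand, so the level of Rac1 depends on how reads from shared bases were counted. Daglb was at 1.29 ± 0.117 FPKM in ZQD and 1.52 ± 0.0674 in control (SD, n = 3 and n = 4).

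Rac2 (ENSMUSG00000033220) was at 13.1, 17.4 and 19.0 FPKM in ZQD 1 to 3, against 14.4, 17.9, 19.1 and 22.1 FPKM in controls 1 to 4. The groups overlapped and both spread widely. The log2 fold change was -0.15 (95% interval -0.53 to 0.23, limma adjusted p = 0.692), and it was close to 0 without ZQD 1 (0.00034). The interval for Rac2 was the widest of the 6, at 0.692- to 1.17-fold.

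**Figure D1:**
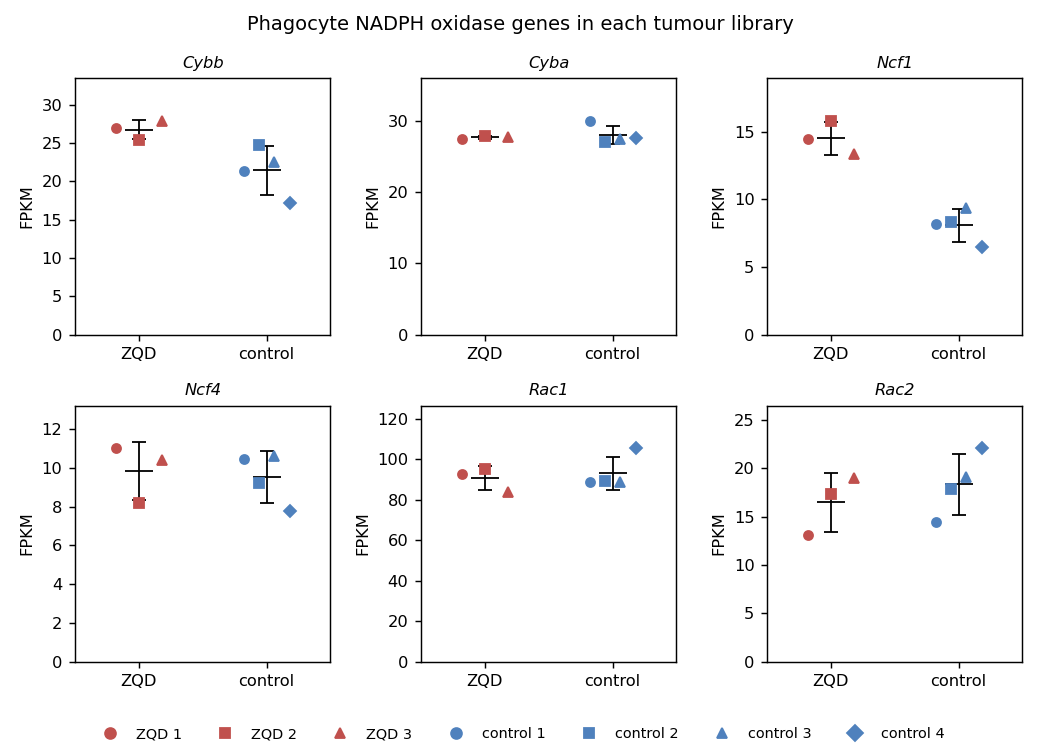
FPKM of the 6 oxidase genes in each library, with ZQD left of control in each panel, a linear y axis from 0, and mean and SD (n = 3 and n = 4) in black. The ZQD libraries lie above every control for Ncf1 (13.35 to 15.8 against 6.45 to 9.37 FPKM) and narrowly for Cybb (25.4 to 27.8 against 17.2 to 24.7), and the groups overlap for the other 4 genes.

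FPKM are scaled by length, here the summed length of all annotated exons of a gene. An order between genes therefore rests on that length, which may differ from that of the transcripts present. By reads, before this scaling, Ncf1 lay above Ncf4 in every control (931 to 1494 against 620 to 1056). In ZQD tumours the order of mean FPKM was Rac1 (90.8), Cyba (27.7), Cybb (26.7), Rac2 (16.5), Ncf1 (14.5) and Ncf4 (9.86). In control tumours it was Rac1 (93.1), Cyba (28.1), Cybb (21.4), Rac2 (18.4), Ncf4 (9.52) and Ncf1 (8.08). The order of Ncf1 and Ncf4 differed between the groups, their ranges overlapping in control but not in ZQD. Ncf4 lay above Ncf1 in each of the 4 controls and below it in each of the 3 ZQD libraries. Cyba lay above Cybb in all 4 controls with ranges that did not overlap, while in ZQD the ranges of Cyba (27.4 to 28.0 FPKM) and Cybb (25.4 to 27.8) overlapped. Rac2 and Cybb did not overlap within ZQD but did within control, and Rac2 and Ncf1 overlapped within ZQD only. The lengths behind these levels are 5808 bp for Cybb, 1039 bp for Cyba, 3663 bp for Ncf1, 2020 bp for Ncf4, 4496 bp for Rac1 and 3103 bp for Rac2. Each equals the summed exon length of the gene in GENCODE M21. On GRCm38 that annotation places Cyba at 122424776 to 122432930 on chromosome 8 and Rac1 at 143503634 to 143528036 on chromosome 5, both on the minus strand. Chromosome 15 holds both Ncf4 (78244801 to 78262580, plus strand) and Rac2 (78559167 to 78572783, minus strand).

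Among themselves the genes fell out differently from library to library. Between 2 genes, the root-mean-square difference of their log2(FPKM + 0.5) profiles, each centred on its own mean over the 7 libraries, serves here as the measure of unlikeness. The smallest difference was between Cyba and Rac1 (0.11), followed by Cyba and Ncf4 (0.17) and by Cybb and Ncf4 (0.20). The largest was between Ncf1 and Rac2 (0.57). The profiles are not scaled by their spread, so 2 genes that varied little lie close whether or not they moved together. Over the 7 libraries the SD was 0.05 for Cyba and 0.11 for Rac1, against 0.23 for Cybb and 0.47 for Ncf1. Ncf1 differed from each of the others by 0.28 (from Cybb) or more. In control 4, Rac1 and Rac2 were at their highest, at 0.20 and 0.34 above their means, while Cybb and Ncf1 were at their lowest, at -0.44 and -0.64. That library also had the lowest macrophage marker score and the lowest pan-leukocyte score of all 7.

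**Figure D2:**
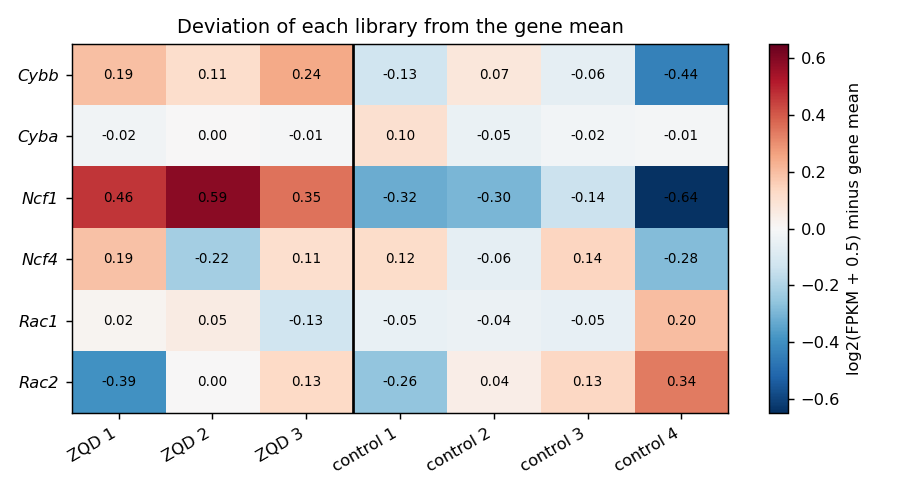
Each cell gives a library's log2(FPKM + 0.5) minus the gene's mean over 7 libraries, with ZQD libraries left of the black line and controls right of it. Ncf1 is above its mean in all 3 ZQD libraries (0.35 to 0.59) and below it in all 4 controls, while Cyba stays within 0.10 of its mean and control 4 has high Rac genes with low Cybb and Ncf1.

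Ratios of 2 subunits within a library do not depend on how libraries are scaled. The question was whether Ncf1 differed from its partners, and 4 ratios are given, each with an unadjusted p from exact permutation of the 35 possible splits, two-sided. The smallest p that this design allows is 0.0286. Adjusted over the 4 ratios given here by Benjamini-Hochberg, that p becomes 0.0571 for the 2 ratios that reached it, which misses 0.05. The ratio of Ncf4 to Ncf1 was 0.762, 0.517 and 0.779 in ZQD 1 to 3, against 1.28, 1.11, 1.13 and 1.21 in controls 1 to 4. In log2 it was -0.57 ± 0.33 in ZQD and 0.24 ± 0.09 in control, a difference of -0.81 (exact permutation p = 0.0286). Cybb to Ncf1 was 1.86, 1.61 and 2.09 in ZQD 1 to 3, against 2.62, 2.97, 2.40 and 2.66 in controls 1 to 4, a log2 difference of -0.53 (exact permutation p = 0.0286). These 2 ratios share Ncf1 and so are not independent of each other. They are also not independent of the FPKM of Ncf1, whose groups were already apart, and so are no separate support for its difference. By each of the 2 ratios Ncf1 was higher in ZQD relative to its partner, with every ZQD library beyond every control.

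The 2 ratios without Ncf1 did not separate the groups. Cybb to Cyba, the 2 chains of the membrane part, was 0.980, 0.908 and 1.005 in ZQD 1 to 3, against 0.713, 0.914, 0.815 and 0.621 in controls 1 to 4. The log2 difference was 0.35 (exact permutation p = 0.0857), and control 2 lay just above ZQD 2. Rac2 to Rac1 was 0.141, 0.182 and 0.226 in ZQD 1 to 3, against 0.163, 0.200, 0.215 and 0.209 in controls 1 to 4. Its log2 difference of -0.12 was smaller than the SD within ZQD (0.34), with an exact permutation p of 0.543.

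**Figure D3:**
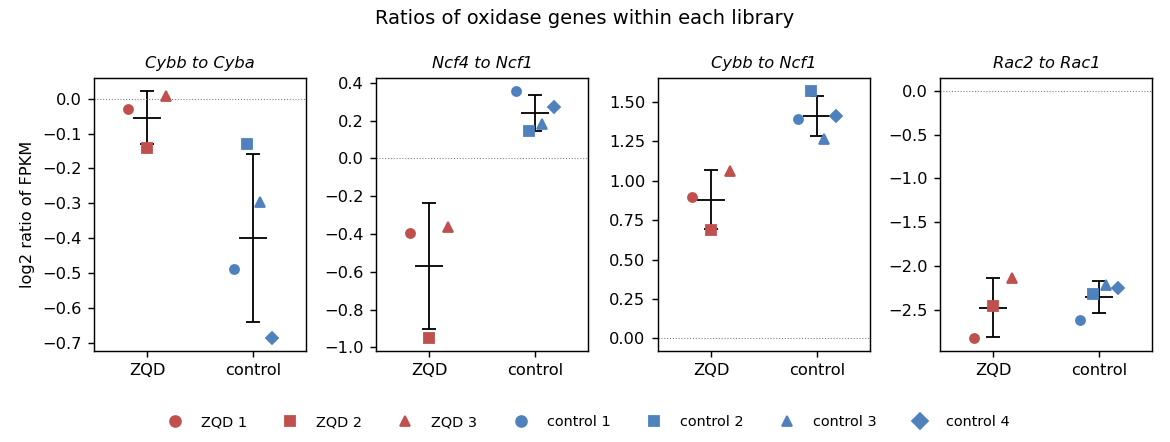
The log2 ratio of the FPKM of 2 genes in each library, ZQD left of control, with mean and SD in black and a separate y axis per panel. The 2 ratios over Ncf1 are lower in every ZQD library than in any control, by 0.53 and 0.81 in log2 on average, while Cybb to Cyba and Rac2 to Rac1 overlap.

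Of 16 listed macrophage and monocyte markers, 15 passed the filter, and limma and edgeR called 0 of them. The log2 fold change was above 0 for 14 (41.8% of all genes) and below 0 for C1qa. An unadjusted limma p under 0.05 was reached by 8, all above 0 (5.21% of all genes), and DESeq2 called 4 (2.3% of all genes were called higher by it). The summed FPKM of all 16 was 1253 to 1604 in ZQD and 867.9 to 1240 in control, and the most abundant over all 7 libraries were Lyz2, lysozyme (448.4 ± 88.1 FPKM in ZQD and 246.3 ± 91.2 in control, SD, n = 3 and n = 4), Cd68, a lysosomal protein (283.3 ± 58.2 FPKM in ZQD and 251.6 ± 27.7 in control), and C1qb, a complement chain (308.3 ± 31.1 FPKM in ZQD and 238.7 ± 36.2 in control). In control alone Cd68 was the highest of the 3. The filter left out Cd163, which reached 11.8 FPKM in ZQD 2 and 0.0514 at most in control. The 15 neutrophil markers summed to 47.9, 108.0 and 47.6 FPKM in ZQD 1 to 3. In controls 1 to 4 the sums were 71.6, 32.2, 60.6 and 37.8 FPKM, so only ZQD 2 lay above the control range. Of 9 tested members, 8 had a log2 fold change above 0 (41.8% of all genes). An unadjusted limma p under 0.05 was reached by 1, Lcn2, which was higher (5.21% of all genes). Lcn2 was scarce, at 0.926 ± 0.296 FPKM in ZQD and 0.277 ± 0.0876 in control. The most abundant neutrophil markers were S100a9 (26.4 ± 20.1 FPKM in ZQD and 10.9 ± 5.10 in control, SD, n = 3 and n = 4) and Mmp9 (19.5 ± 10.5 and 25.1 ± 12.8 FPKM). The granule genes Mpo and Elane, which define immature neutrophils, had at most 4 reads in any library. Ly6g, which defines mature ones, had at most 9. No listed marker was at 0 in every library. The part of either cell type in the oxidase values was not tested.

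Set against the 7 pan-leukocyte or the 15 tested macrophage and monocyte markers in the same library, Ncf1 lay higher in every ZQD library than in any control. Its log2(FPKM + 0.5) minus the mean of the 7 pan-leukocyte markers was -1.44, -1.345 and -1.53 in ZQD 1 to 3, against -2.09, -2.01, -2.05 and -2.32 in controls 1 to 4, a mean difference of 0.68. Relative to these markers, 1.6% of all tested genes had every ZQD library above every control and 17.7% had every one below. Minus the mean of the 15 macrophage and monocyte markers it was -1.01, -1.33 and -1.25 in ZQD 1 to 3, against -1.64, -1.46, -1.41 and -1.38 in controls 1 to 4. That mean difference was 0.28, and 0.18 without ZQD 1, with ZQD 2 and control 4 the closest to each other. The 15 markers leave out Cd163, which was at 1.01, 11.8 and 0.0895 FPKM in ZQD 1 to 3. In control it was at 0.0514 FPKM at most. Its inclusion would lower Ncf1 most in ZQD 2 on this scale, so the narrow separation holds for the 15 markers only. Relative to these markers, 0.101% of all tested genes had every ZQD library above every control and 54.5% had every one below. The mean of the markers itself was 0.54 higher in ZQD, so a gene with equal levels in both groups stands at -0.54 on this scale. Cyba (-0.56), Ncf4 (-0.49, and -0.25 without ZQD 2) and Rac1 (-0.57) had every ZQD library below every control, as did that 54.5% of all genes. Cybb (-0.22, and -0.06 without ZQD 2) and Rac2 (-0.69) overlapped. Relative to the pan-leukocyte markers, the other 5 genes overlapped, with differences from -0.29 (Rac2, -0.14 without ZQD 1) to 0.18 (Cybb, 0.11 without control 4). Relative to the 9 tested neutrophil markers all 6 genes overlapped, Ncf1 with a difference of 0.35.

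**Figure D4:**
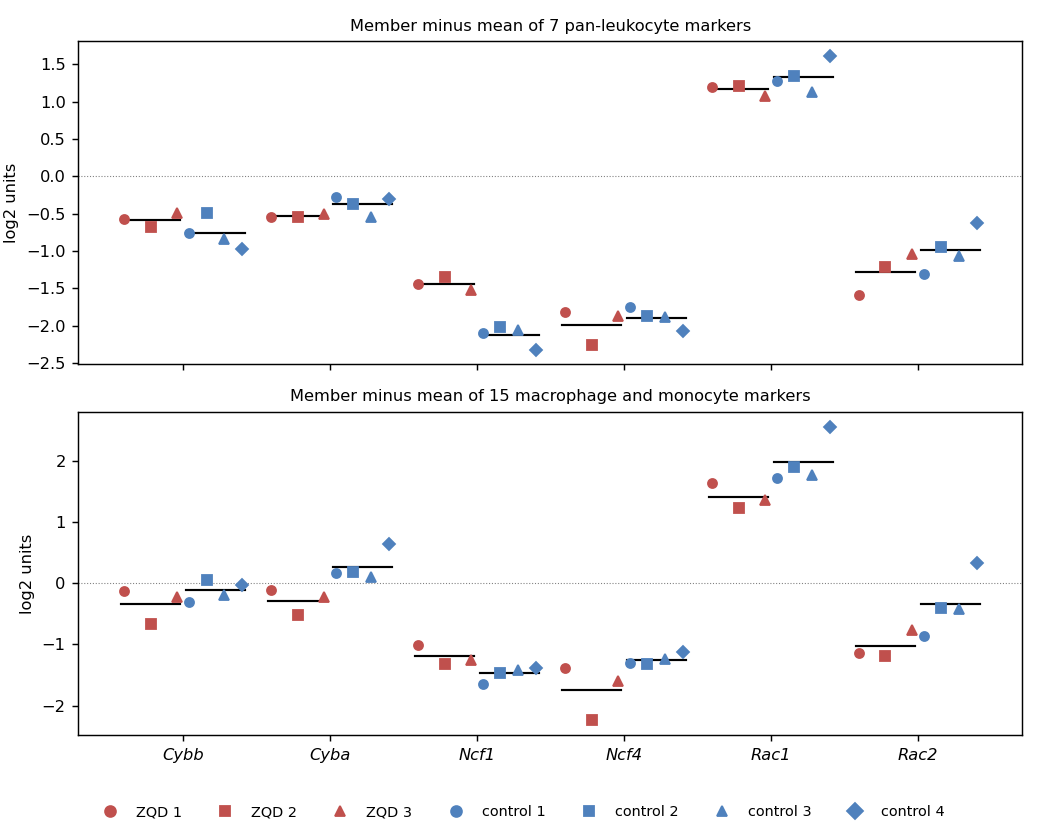
For each oxidase gene and library, log2(FPKM + 0.5) minus the mean of the pan-leukocyte markers (upper panel) or of the macrophage and monocyte markers (lower panel), ZQD left of control, with group means as black lines. Ncf1 is the 1 gene of the 6 with all ZQD libraries above all controls in both panels (mean differences 0.68 and 0.28). The lower panel uses the markers that passed the filter, without Cd163, and the separation there holds for those only.

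The partners of the oxidase and the proteins that switch it or Rac on or off had a median near that of all genes. Listed here as partners and activators, they include inhibitors such as Arhgdia and Arhgap15, so the median mixes opposite functions. Of 20 partners and activators tested, 12 were higher and 8 lower, and limma called 0. Their median log2 fold change was 0.04, beside -0.04 for all genes. At an unadjusted limma p under 0.05 there was 1 higher and 1 lower, 10% of the list beside 15.5% of all genes. The higher was Dock2, the exchange factor that loads Rac with GTP in leukocytes, at 5.99, 7.13 and 7.40 FPKM in ZQD 1 to 3, against 4.33, 4.92, 5.81 and 4.52 FPKM in controls 1 to 4. Its groups did not overlap, with a log2 fold change of 0.45 (limma adjusted p = 0.186), and DESeq2 called it (adjusted p = 0.0125). The lower was Arhgdia, the ubiquitous inhibitor that holds Rac in the cytosol, at 143.8 ± 9.73 FPKM in ZQD and 186.7 ± 19.4 in control (SD, n = 3 and n = 4). Its log2 fold change was -0.37 (limma adjusted p = 0.189). Its relative in blood cells, Arhgdib, was at 119.7 ± 11.1 FPKM in ZQD and 116.8 ± 18.3 in control. Rap1b, a small GTPase, was at 93.5 ± 10.2 FPKM in ZQD and 86.8 ± 8.29 in control. Arhgap15, which switches Rac off, was the other gene that DESeq2 called, at 0.667 ± 0.0995 FPKM in ZQD and 0.426 ± 0.0650 in control. Of all genes, 2.3% were called higher by DESeq2.

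Of 10 receptors that trigger the burst, limma called 0. All 10 had a log2 fold change above 0, beside 41.8% of all genes, with a median of 0.41, and for 7 of them the 95% interval spanned 0. The 3 at an unadjusted limma p under 0.05 (30% of the list beside 5.21% of all genes in that direction) were Fcgr3, Itgam and Tlr2. Fcgr3, an activating receptor for IgG, was at 67.3, 93.6 and 83.0 FPKM in ZQD 1 to 3, against 50.01, 51.5, 52.5 and 36.3 FPKM in controls 1 to 4. Itgam, the integrin chain CD11b, was at 13.5, 18.6 and 13.7 FPKM in ZQD 1 to 3, against 6.01, 7.68, 10.1 and 10.2 FPKM in controls 1 to 4. Tlr2, a receptor for bacterial lipoproteins, was at 13.8, 10.3 and 14.9 FPKM in ZQD 1 to 3, against 9.25, 8.83, 8.74 and 6.03 FPKM in controls 1 to 4. In all 3 genes every ZQD library lay above every control (5.35% of all genes), and DESeq2 called the 3 (2.3% of all genes were called higher by it). Their log2 fold changes of 0.77, 0.82 and 0.63 were close to that of Ncf1. The integrin chain Itgb2 was at 49.7 ± 5.97 FPKM in ZQD and 42.6 ± 4.85 in control (SD, n = 3 and n = 4). Fcgr4 was at 32.5 ± 7.05 FPKM in ZQD and 24.1 ± 6.11 in control. Marker values for macrophages and for neutrophils are given above, and the part of either cell type in the receptor values was not tested.

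**Figure D5:**
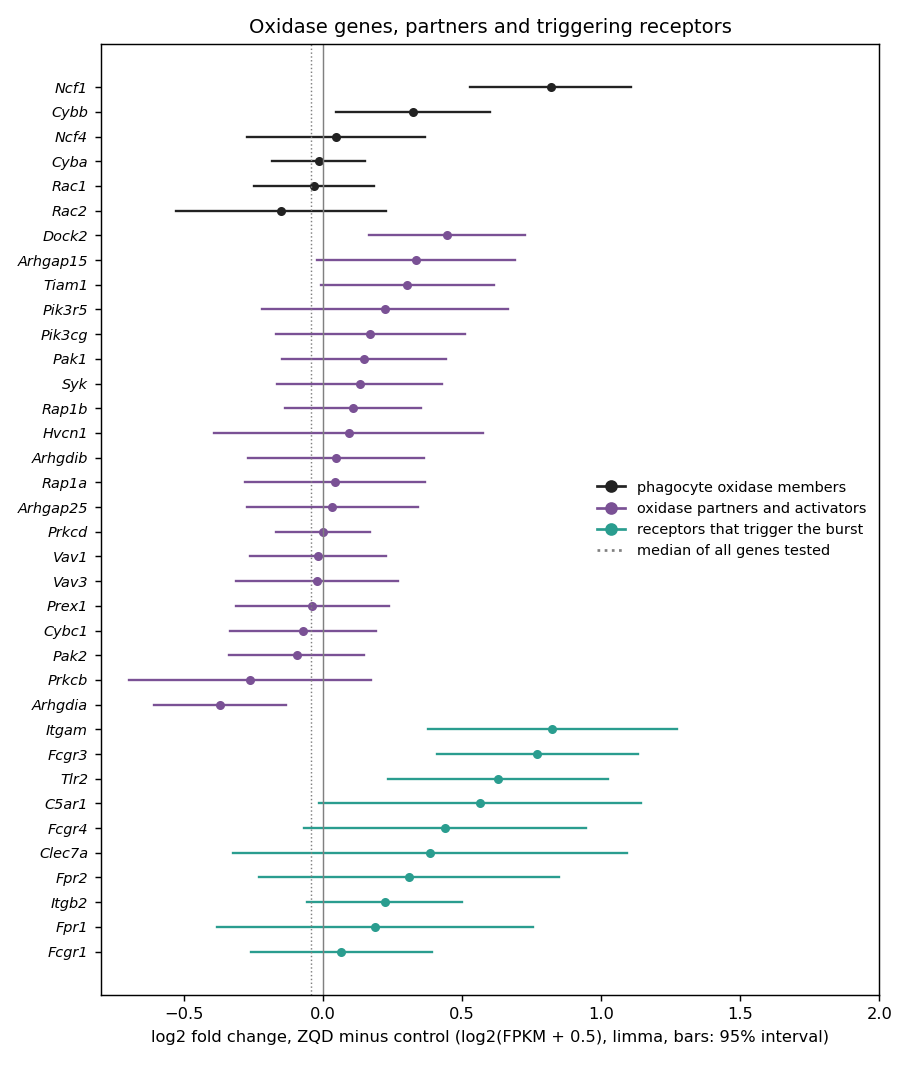
Log2 fold change (ZQD minus control, limma on log2(FPKM + 0.5)) with its 95% interval for the 6 oxidase genes, 20 partners and activators and 10 triggering receptors, with the median of all tested genes as a dotted line. Ncf1 (0.82), Itgam (0.82) and Fcgr3 (0.77) stand at the upper end, most partners lie near 0, and Arhgdia (-0.37) is the lowest.

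Other NADPH oxidases were scarce. Nox4 was the 1 of 8 genes measured that passed the filter, at 0.789 ± 0.0672 FPKM in ZQD and 0.722 ± 0.186 in control (SD, n = 3 and n = 4). Noxo1, the organizer that pairs with Nox1, was next at 0.173 ± 0.0595 FPKM in ZQD and 0.257 ± 0.104 in control, and Nox3 was not analysed here. The summed FPKM of all 8 was 0.976 to 1.202 in ZQD and 0.757 to 1.35 in control. Cybb alone, at 17.2 FPKM or more, lay far above that sum in every library.

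Genes that dispose of superoxide and peroxide were mixed, with 8 higher and 5 lower of 13 and 0 called. At an unadjusted limma p under 0.05 there were 3 higher and 1 lower, 30.8% of the list beside 15.5% of all genes. Sod2, the mitochondrial superoxide dismutase, was at 7.73 ± 1.04 FPKM in ZQD and 6.29 ± 0.463 in control (SD, n = 3 and n = 4). Sod3, the secreted one, was at 5.67, 8.35 and 0.585 FPKM in ZQD 1 to 3, against 1.89, 0.454, 0.993 and 0.272 FPKM in controls 1 to 4. Gpx3, the plasma glutathione peroxidase, was at 26.3, 40.3 and 2.74 FPKM in ZQD 1 to 3, against 8.97, 1.25, 3.94 and 1.57 FPKM in controls 1 to 4. For both, ZQD 3 lay within the control range. Gpx4, which reduces lipid peroxides, was at 46.8 ± 1.89 FPKM in ZQD and 55.6 ± 4.04 in control, with a log2 fold change of -0.24 (limma adjusted p = 0.250). The most abundant were Prdx1 (136.0 ± 28.6 FPKM in ZQD and 120.9 ± 11.2 in control) and Gpx1 (102.9 ± 4.09 and 92.9 ± 7.13 FPKM).

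Enzymes that supply NADPH, the oxidase's electron donor, were 3 higher and 5 lower of 8, with 0 called. G6pdx, the entry enzyme of the pentose phosphate pathway, was at 65.2 ± 8.54 FPKM in ZQD and 55.0 ± 4.92 in control (SD, n = 3 and n = 4). Taldo1 of the same pathway was at 49.7 ± 6.16 FPKM in ZQD and 54.9 ± 6.75 in control. An unadjusted p under 0.05 was reached by 2 genes, 25% of the list beside 15.5% of all genes. Both were lower, as were 1533 of the 2306 genes with such a p. H6pd, the enzyme's counterpart in the endoplasmic reticulum, was at 19.6 ± 0.566 FPKM in ZQD and 24.2 ± 1.71 in control (limma adjusted p = 0.186). Malic enzyme Me1 was at 14.7 ± 1.52 FPKM in ZQD and 18.03 ± 2.16 in control (limma adjusted p = 0.297).

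Over the 7 libraries, the profile most like that of Ncf1 was that of Gimap4, a lymphocyte GTPase, with a root-mean-square difference of 0.10 in log2 units. Tfec, a transcription factor of macrophages, and Smpdl3a followed at 0.10 and 0.11. The 3 genes most like Cybb were Tnnt1 (0.046), Gatc (0.051) and Cnot4 (0.055), of which Gatc had 24.9, 22.7 and 26.3 FPKM in ZQD 1 to 3, against 18.5, 23.7, 21.1 and 16.5 FPKM in controls 1 to 4. Diexf, Ipo8 and Fryl were most like Cyba (0.02 each), Zscan2, Tifab and Zfp300 most like Ncf4 (0.04, 0.04 and 0.05), Tceal8, Psmb2 and Hnrnpk most like Rac1 (0.03, 0.03 and 0.04) and Pltp, Chek1 and Pik3ap1 most like Rac2 (0.06, 0.08 and 0.08). The gene closest to Ncf1 was farther from it than the closest gene was from any of the other 5. The measure is not scaled by spread, and Ncf1 had the largest SD over the 7 libraries (0.47, against 0.05 to 0.25 for the other 5). That distance therefore does not show that the pattern of Ncf1 was less shared.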

How the data were processed

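Per the labels, poly(A) RNA of subcutaneous tumours was made into paired-end libraries, 7 of them in this series. The authors deposited FPKM for all 7, and raw counts per gene for controls 1 and 2 only. The submitters' processing notes name HISAT2, featureCounts, Subread and DESeq2. Their versions and roles, the build, the annotation and strand use are not stated in those sources. Dividing each count by its FPKM in those 2 libraries gave a gene length for 27421 of 32212 genes, and 98.2% of the lengths compared equal GENCODE M21 exon lengths. With them, FPKM gave reads for every library, 100% within 0.05 of a whole number. Symbols matched 98.0% of identifiers.

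The main test was limma 3.58.1 (with trend, R 4.3.3) on log2(FPKM + 0.5), two-sided. It took 14838 genes that reached 0.5 FPKM in 3 or more libraries, and p-values were adjusted over all of them by Benjamini-Hochberg. Alternatives were edgeR 4.0.16 and DESeq2 1.42.0 on rebuilt reads of 14832 genes, other pseudocounts, filters, scalings, trend and weights, a replicate block, and each library left out. DESeq2 left 2307 adjusted p-values empty. Tested on simulated data for this comparison (14832 genes), limma found 74% of changes of 1 in log2 and 96% of changes of 2, with 16 calls among 14632 unchanged genes. edgeR found 79% and 98% with 11 such calls, and DESeq2 91% and 98% with 37. The changed genes were drawn from well-covered genes only, noise was independent between genes, and no library-wide shift was simulated. These shares are therefore a check of the tools and not the power of the real comparison. No library duplicated another.

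The genes and lists were chosen with earlier results of these data known. All 6 genes are named. Of partners, activators and receptors, those with an unadjusted p under 0.05 and the 3 most abundant are named, and of other pathway lists the same with 2. The 3 most similar profiles leave out predicted genes and pseudogenes. Marker lists for dendritic, T, B, NK and mast cells, endothelium, fibroblasts, blood and muscle are summarised at the end. Gtf2ird2 and Daglb were picked for position, Arhgap15, Cd163 and Lcn2 after their values were seen. Another ratio and 1 gene list are not reported here. Plots used matplotlib 3.10.9 and Python 3.11.15.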

Additional observations from a re-analysis of the deposited data

Results flagged for a closer look

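In 7 of 80 sets of 4 control values that were checked, 1 library stood apart from the other 3 by more than the limit of Dixon's gap test at 95%. Chance flags about 1 in 20 sets. Control 4 was set apart by Rac1 (105.5 FPKM), by Cyba relative to the macrophage markers (0.64 in log2 units), by Fcgr3 (36.3 FPKM) and by Tlr2 (6.03 FPKM). Control 2 was set apart by Prdx2 (21.7 FPKM), control 1 by Itgb2 (35.3 FPKM) and control 3 by Rap1a (29.8 FPKM). ZQD has 3 libraries, too few for this check.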

How the results depend on the processing

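Over the 7 leave-one-out fits, Ncf1 ranged from 0.72 to 0.89 in log2 fold change and Cybb from 0.22 to 0.39, while Cyba (-0.034 to 0.016), Ncf4 (-0.042 to 0.17), Rac1 (-0.071 to 0.028) and Rac2 (-0.26 to 0.00034) crossed 0. The ratios ranged from -0.91 to -0.62 (Ncf4 to Ncf1), -0.62 to -0.43 (Cybb to Ncf1) and -0.29 to 0.053 (Rac2 to Rac1). Genes called stayed at 0, with 1759 to 2284 at an unadjusted p under 0.05. With 1 library fewer, the smallest exact p is above 0.05, so the ratios cannot pass then.

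DESeq2 called 517 genes, against 0 in limma, among them Ncf1 (0.89), 2 partners and 3 receptors. The sign of Cyba turned under median-of-ratios (0.0151), TMM (0.00101) and mitochondria-free scaling (0.0373), in edgeR (0.0266) and in DESeq2 (0.0270). Rac1 turned under mitochondria-free scaling (0.0206), in edgeR (0.00838) and in DESeq2 (0.00938), and Ncf4 on the TPM scale (-0.0513) and with array weights (-0.0058). List medians moved on the TPM scale to -0.0552 (partners) and -0.25 (NADPH supply). TPM shifted the median of all genes to -0.13. The split at an unadjusted p under 0.05 was 773 higher and 1533 lower, and 1154 and 1044 without mitochondrial genes, 1008 and 1158 by median of ratios, 907 and 1280 by TMM, 379 and 2859 on the TPM scale and 1383 and 1829 without a filter. Ncf1 relative to the median macrophage marker was 0.47. The causes were not tested.

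Same-numbered samples did not deviate together throughout (correlations 0.25, 0.10 and -0.15), so the numbers are not taken as pairs. With the replicate block 1 gene was called, Ncf4 was at -0.0415 and Rac1 at 0.0277. The ratios were -0.80 (Ncf4 to Ncf1) and -0.53 (Cybb to Ncf1), where 3 pairs cannot reach 0.05.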

Other observations

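Other cell type markers are given as summed FPKM. Mast cell and eosinophil markers were at 48.4, 63.8 and 4.22 FPKM in ZQD 1 to 3, against 21.1, 5.55, 7.53 and 6.47 FPKM in controls 1 to 4, so ZQD 3 lay below every control and the other 2 above them. T cell markers had a log2 fold change above 0 for 9 of 9 tested (41.8% of all genes), with 0 at an unadjusted limma p under 0.05. Their sums overlapped, at 28.6 to 37.1 FPKM in ZQD and 20.1 to 31.7 FPKM in control, where control 4 was the lowest. Dendritic cell markers were at 12.9 to 28.1 FPKM in ZQD and 20.9 to 36.4 FPKM in control, B cell markers at 13.4 to 21.3 and 9.501 to 24.9 FPKM, and NK cell markers at 38.1 to 47.2 and 25.7 to 43.4 FPKM. Most of the NK cell sum came from Eomes and Prf1, and the more specific Ncr1 and Klrb1c stayed at or below 0.916 FPKM in every library. Of 3 NK cell markers tested, 2 were higher and 1 lower. The 2 higher ones had an unadjusted limma p under 0.05 (5.21% of all genes) and every ZQD library above every control (5.35%). For this list limma called 0 and DESeq2 called 1 (4.13% of all genes). Endothelial markers were at 17.8 to 35.01 FPKM in ZQD and 16.7 to 28.6 FPKM in control, fibroblast markers at 45.8 to 207.2 and 35.5 to 134.6 FPKM, blood genes at 61.5 to 413.8 and 67.4 to 241.9 FPKM, epithelial markers at 7.25 to 21.1 and 9.10 to 33.3 FPKM, and muscle genes at 1.08 to 6.12 and 0.381 to 21.4 FPKM. ZQD 2 had the highest blood sum and the highest neutrophil sum of the 7 libraries.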
